A study of Mus musculus with 4 samples.

Results

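Foxp3 and the 5 genes of the Ikaros zinc finger family, Ikzf1 (Ikaros), Ikzf2 (Helios), Ikzf3 (Aiolos), Ikzf4 (Eos) and Ikzf5 (Pegasus), are described here in single CD4+ T cells of the mouse small intestine. The 6 genes were chosen by name, and each was found once among the 31053 gene IDs of the deposited matrices. The cells came from wild-type C57Bl/6 mice, from the lamina propria, a connective layer that lies below the lining of the gut. The labels give no treatment, and the age and sex of the mice are not given in the sources used here. Peyer's patches were taken out, the tissue was digested with collagenase D, and living cells (7AAD-) were sorted as CD45+CD3+CD4+. The data are 4 libraries of 5′ single-cell RNA-seq that form 1 group. The labels do not say that each library held 1 mouse, so p-values measure the spread between libraries.

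Foxp3 is the forkhead transcription factor that defines regulatory T (Treg) cells, which hold back immune responses and, in the gut, keep up tolerance to food and microbes. Ikaros proteins bind DNA through a cluster of zinc fingers near their start and pair with each other through further fingers at their end. They recruit chromatin remodelling and deacetylase complexes. Ikaros is needed for lymphocyte development and restrains effector genes, Helios and Eos act with Foxp3 in Treg cells, Aiolos silences Il2 in Th17 cells, and Pegasus is the most distant and least studied member.

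In mm10, Foxp3 lies on the plus strand at chrX:7573644-7595245. Ikzf1 lies at chr11:11685003-11772926 on the plus strand, Ikzf3 at chr11:98464902-98546031, Ikzf2 at chr1:69531214-69687245, Ikzf4 at chr10:128630843-128645991 and Ikzf5 at chr7:131388652-131410521, all 4 of these on the minus strand. On its own strand, Ikzf5 overlaps Fgfr2 and Foxp3 overlaps Flicr. On the other strand, Ikzf1, Ikzf2 and Ikzf4 each overlap a predicted gene, Foxp3 overlaps Ppp1r3f and Ccdc22, and Ikzf5 overlaps Pstk. Reads in these overlaps may be uncertain. The family is shown by the coding sequence of a DNA-binding finger, because near-identical copies could share reads. Each sequence is 63 bases of the coding strand, 5′ to 3′, from the GENCODE transcripts of the mm10 assembly, with capitals marking the cysteine and histidine codons that hold the zinc. It is the second finger found for Ikzf1 to Ikzf4, and for Ikzf5 the finger with most amino acids in common with that of Ikzf1.
Ikzf1: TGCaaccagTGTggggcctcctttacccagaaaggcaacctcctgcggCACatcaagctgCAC
Ikzf2: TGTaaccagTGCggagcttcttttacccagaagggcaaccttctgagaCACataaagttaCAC
Ikzf3: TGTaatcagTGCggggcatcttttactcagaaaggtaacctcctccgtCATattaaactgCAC
Ikzf4: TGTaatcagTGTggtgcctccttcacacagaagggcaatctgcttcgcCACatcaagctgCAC
Ikzf5: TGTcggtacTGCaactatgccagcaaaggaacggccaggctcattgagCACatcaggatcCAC
Ikzf2 and Ikzf3 each had 51 of the 63 bases in common with Ikzf1, Ikzf4 had 53 and Ikzf5 had 29. The longest run of identical bases between any pair of the 5 transcripts was 26 bases, between Ikzf1 and Ikzf3.

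The matrices held 22904 barcodes, of which 21501 were analysed as cells after filters on quality and doublets, between 5149 and 5626 a library, with median depths of 3630 to 4173.5 UMIs (unique molecular identifiers, each a counted transcript molecule). Any pair of libraries had 34 to 55 barcodes in common. Cells were placed in gates by the first match: at least 1 Foxp3 UMI, then at least 1 UMI of Il17a (the Th17 cytokine), at least 1 of Ifng (the Th1 cytokine), at least 10 of Gzma (a granzyme), and the rest. The Foxp3 gate held 1535 cells, 7.11% ± 1.21 of a library (SD, n = 4 libraries). The Il17a gate held 586 cells (2.72% ± 1.05), the Ifng gate 6599 (30.7% ± 1.60), the Gzma gate 1746 (8.13% ± 0.749) and the rest 11035 (51.3% ± 1.62). Median depths differed, at 4483 UMIs in the Foxp3 gate, 5215.5 in the Il17a gate, 3964 in the Ifng gate, 3576.5 in the Gzma gate and 3745 in the rest.

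A gate is a count of transcripts and not a cell type, and the other cell types were checked by lists of their markers. All 8 T cell markers were found in every gate, and their summed level was 5658 to 6126 CPM (counts scaled to a common total of 1e+06 UMIs) in the Foxp3 gate and 5980 to 6233 CPM in the rest. Of 6 epithelial markers, Krt19 and Alpi were at 0 in the Foxp3 gate, but the summed level was 83.6 to 108 CPM there and 15.5 to 21.6 CPM in the rest. Epcam made up most of it, with 91.8 CPM in the Foxp3 gate and 15.3 CPM in the rest. The 8 myeloid markers summed to 215.7 to 249.4 CPM in the Foxp3 gate and 147.7 to 176.0 CPM in the rest, mostly Cst3, and the 8 B and plasma cell markers to 56.3 to 1900.3 CPM and 201.5 to 1015 CPM. The 7 ILC2 and mast cell markers summed to 96.0 to 152.6 CPM in the Foxp3 gate and 8.41 to 26.2 CPM in the rest, with Mcpt1 and Mcpt2 at 0 in the Foxp3 gate and most of the sum from Il1rl1, which Treg cells also express. The 6 markers of CD8 and gamma-delta T cells summed to 30.8 to 72.9 CPM in the Foxp3 gate and 64.5 to 101.2 CPM in the rest. The 6 markers of cycling cells summed to 254.6 to 470.1 CPM in the Foxp3 gate and 200.8 to 267.8 CPM in the rest. The part of these transcripts in the results was not tested.

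Foxp3 was a low-count gene. Of the 1535 cells of its gate, 600 had 1 Foxp3 UMI, 388 had 2, 250 had 3 and 297 had at least 4, with a highest count of 10. Its level in the gate was 409.9, 432, 459 and 310.5 CPM in libraries 1 to 4, which describes the gate and is no test. Library 4 was lowest, and it also had the smallest Foxp3 gate (5.36% of its cells, against 7.38% to 8.11% in the others). The gates overlapped, since 21 Foxp3 cells also had Il17a, 181 also had Ifng and 410 also passed the Gzma gate. Of all cells passing each of these gates, 3.46% of those with Il17a, 2.61% of those with Ifng and 10.9% of those with Gzma had a Foxp3 UMI, against 8.20% of the cells passing none of the 3.

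Flicr, a long noncoding RNA gene on the strand of Foxp3 that overlaps it, is known in mice as a local modifier of Foxp3. It had 18.1, 14.4, 11.9 and 8.72 CPM in the Foxp3 gate and 0.25, 0.694, 1.33 and 0.254 CPM in the rest. In every other gate Flicr had at most 2.05 CPM in a library, so it passed the filter on low counts only through the Foxp3 gate. No fold or p is therefore given for it. The 2 genes overlap on 1 strand, so their reads cannot be fully told apart.

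The Ikaros genes moved in different directions with Foxp3. Against the rest, in edgeR's quasi-likelihood test on UMIs summed per library and gate, Ikzf2 and Ikzf4 rose in the Foxp3 gate, Ikzf1 and Ikzf3 fell, and Ikzf5 did not pass. The comparison called 34.4% of the 9693 genes tested at an adjusted p of 0.05 (Benjamini-Hochberg), 18.2% higher and 16.2% lower, so a call alone was not rare. Ranked by p among those genes, Ikzf4 stood at 8, Ikzf2 at 20 and Ikzf1 at 93, while Ikzf3 stood at 2411.

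Ikzf2, which encodes Helios, a factor linked to stable Foxp3 expression in Treg cells, had 901, 771, 879.8 and 704 CPM in the Foxp3 gate of libraries 1 to 4. The rest had 157, 167, 158 and 134 CPM. The groups did not overlap, and library 4 was lowest in both. The log2 fold change was 2.42 ± 0.10 (SE, edgeR, adjusted p = 1.43e-14). Outside the Foxp3 gate the order of the means was 231 ± 47.0 CPM in the Gzma gate, 154 ± 14.0 in the rest, 148 ± 35.3 in the Il17a gate and 130.5 ± 18.4 in the Ifng gate (SD, n = 4 each). The Il17a gate overlapped the rest and did not pass the test against it (0.01 ± 0.12, adjusted p = 0.966 in edgeR). In cells of 3000 to 5000 UMIs the same value was 0.54 (adjusted p = 0.0602).

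Ikzf4, which encodes Eos, a corepressor partner of Foxp3, was a low-count gene with the largest fold of the family. It had 64.5, 62.8, 55.5 and 54.4 CPM in the Foxp3 gate. In the rest it had 7.00, 5.55, 6.44 and 5.67 CPM, so every library of the gate was far above every library of the rest. The log2 fold change was 3.28 ± 0.12 (SE, edgeR, adjusted p = 2.90e-15). The Gzma gate had 10.7, 18.7, 10.5 and 10.6 CPM, the Il17a gate averaged 5.57 ± 1.71 CPM and the Ifng gate 5.26 ± 1.20 CPM (SD, n = 4 each).

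Ikzf1, which encodes Ikaros itself, went the other way. It had 66.5, 64.4, 66.4 and 80.6 CPM in the Foxp3 gate, and 143, 144, 148 and 155 CPM in the rest. The groups did not overlap, and the log2 fold change was -1.07 ± 0.07 (SE, edgeR, adjusted p = 1.37e-11). The Il17a gate lay between, with 95.5, 105, 111 and 122 CPM. The Gzma gate (139 ± 16.3 CPM) and the Ifng gate (152 ± 6.88 CPM) overlapped the rest (148 ± 5.57 CPM; SD, n = 4 each).

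Ikzf3, which encodes Aiolos, changed least of the 4 called Ikaros genes in the Foxp3 gate. It had 190.6, 234, 234 and 211 CPM there and 261, 283, 258 and 239.6 CPM in the rest. The 2 ranges lay next to each other without overlap, and the log2 fold change was -0.24 ± 0.07 (SE, edgeR, adjusted p = 0.0115). Without library 1 the adjusted p was 0.17, and without library 2 it was 0.0513. With every cell thinned to 2000 UMIs it was 0.0609. In this and every other edgeR test of thinned cells, the gates and Foxp3 UMI numbers were set again on the thinned counts. Cells could therefore change gate.

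Ikzf5, which encodes Pegasus, had 20.9, 16.8, 19.8 and 19.0 CPM in the Foxp3 gate and 18.7, 20.9, 19.8 and 19.8 CPM in the rest. The groups overlapped. The log2 fold change of -0.03 had a 95% interval of -0.25 to 0.19 (edgeR, adjusted p = 0.871).

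**Figure D1:**
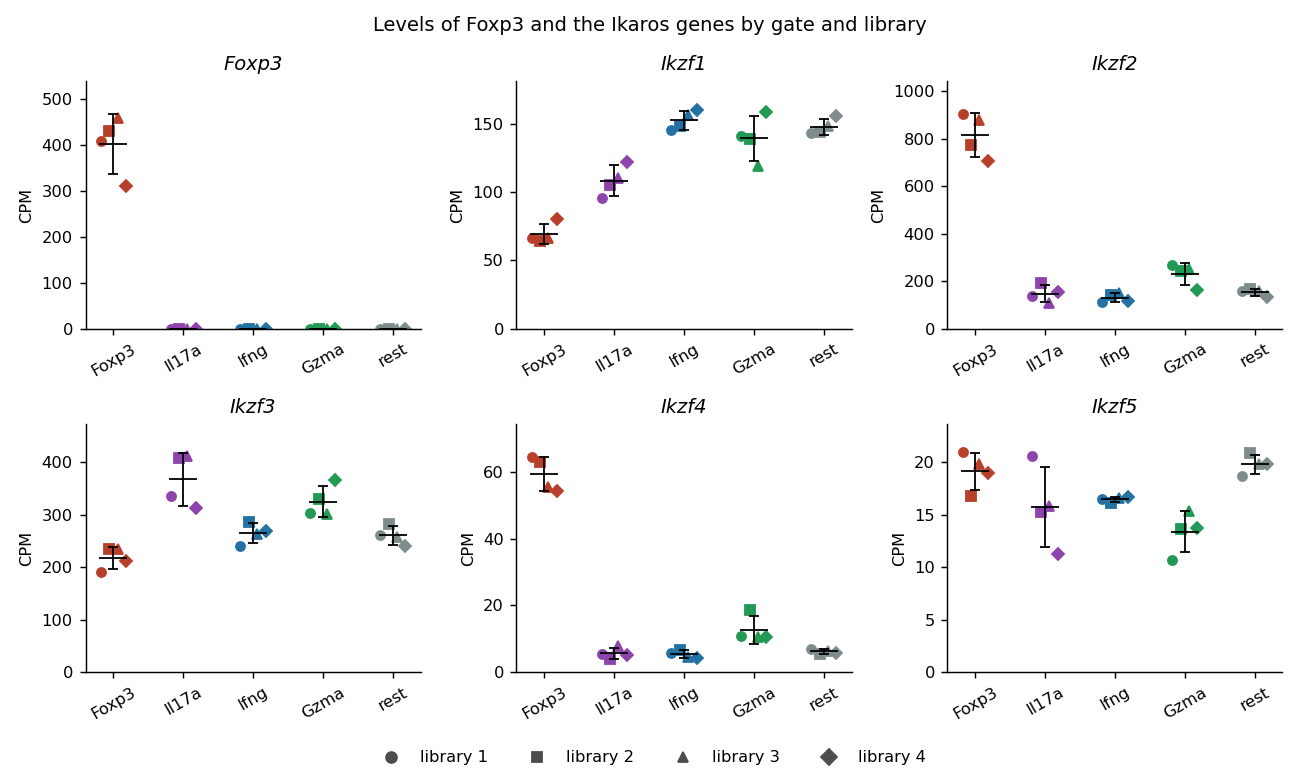
Level in CPM (y axis, linear, from 0) of Foxp3 and the 5 Ikaros genes in the 5 gates (x axis), with 1 marker per library and the mean with its SD in black (n = 4 libraries). Foxp3 is 0 outside its gate by construction, Ikzf2 and Ikzf4 are highest in the Foxp3 gate, Ikzf1 is lowest there, and Ikzf3 is highest in the Il17a gate.

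The same 4 genes moved in the same directions when the Foxp3 gate was set against the Ifng gate, in which 33.1% of the genes tested were called (edgeR; 17.6% higher and 15.5% lower). The log2 fold changes were 2.69 ± 0.10 for Ikzf2, 3.54 ± 0.13 for Ikzf4, -1.09 ± 0.07 for Ikzf1 and -0.24 ± 0.07 for Ikzf3 (SE). Ikzf5 was higher in all 4 libraries of the Foxp3 gate by 0.26 ± 0.12, with an adjusted p of 0.116 in edgeR. It passed with no doublet removal (0.30, adjusted p = 0.0484). Both comparisons use the same Foxp3 sums, so the second is no independent repeat of the first.

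The family also differed between cells without a Foxp3 UMI. Such cells may still express Foxp3, since 600 of the 1535 cells of its gate had only 1 UMI. Of all cells passing the Gzma gate 10.9% had a Foxp3 UMI, against 3.46% for Il17a, 2.61% for Ifng and 8.20% of cells passing none of these. The part of missed Foxp3 in the values of these gates was not tested. In the Il17a gate, where 26.3% of the genes tested were called against the rest (edgeR; 15% higher and 11.3% lower), 1 Ikaros gene rose and 1 fell. Ikzf3 had 337, 409, 413 and 313 CPM in the Il17a gate and 261, 283, 258 and 239.6 CPM in the rest. All libraries of the Il17a gate were above all of the rest, and the log2 fold change was 0.52 ± 0.08 (SE, edgeR, adjusted p = 1.72e-05). In cells of 3000 to 5000 UMIs it was 0.91 (adjusted p = 2.27e-07). Ikzf1 fell by 0.42 ± 0.07 on the log2 scale (adjusted p = 1.36e-04 in edgeR). That call was lost with cells thinned to 2000 UMIs (-0.27, adjusted p = 0.226) and in cells of 3000 to 5000 UMIs (-0.41, adjusted p = 0.103). Cycling markers summed to 634 to 1223 CPM in the Il17a gate and 200.8 to 268 CPM in the rest. Markers of CD8 and gamma-delta T cells summed to 93.4 to 245 CPM and 64.5 to 101.2 CPM, with Trdv4 at 0 in the Il17a gate and Tcrg-C1, a constant segment of the gamma chain, at 86.3 and 25.3 CPM. The part of both lists in these values was not tested.

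In the Gzma gate 16.1% of the genes tested were called against the rest (edgeR; 8.43% higher and 7.63% lower), and 4 of the 5 Ikaros genes were among them. Ikzf2 rose by 0.56 ± 0.10 on the log2 scale (adjusted p = 4.64e-04), Ikzf3 by 0.30 ± 0.07 (0.00389) and Ikzf4 by 1.02 ± 0.18 (3.02e-04; SE, edgeR). Ikzf2 was higher in all 4 libraries, although the ranges overlapped, since library 4 of the Gzma gate had 163 CPM. Ikzf5 fell to 13.4 ± 1.96 CPM in the Gzma gate, against 19.8 ± 0.916 CPM in the rest (SD, n = 4 each; log2 fold change -0.59 ± 0.13, edgeR adjusted p = 0.00287). Markers of CD8 and gamma-delta T cells summed to 163.9 to 400.6 CPM in the Gzma gate and 64.5 to 101.2 CPM in the rest, and cycling markers to 326.1 to 758 CPM and 200.8 to 268 CPM. The part of both lists in these values was not tested.

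In the Ifng gate 10.8% of the genes tested were called against the rest (edgeR; 5.27% higher and 5.51% lower). Ikzf5 was the 1 Ikaros gene called, with 16.5 ± 0.255 CPM in the Ifng gate and 19.8 ± 0.916 CPM in the rest (log2 fold change -0.29 ± 0.08, adjusted p = 0.0298 in edgeR). The adjusted p was above 0.05 under 7 of the alternatives tried, among them leaving out library 2 (0.188), 3 (0.111) or 4 (0.0852). Ikzf4 was not called (-0.26, adjusted p = 0.329) but passed with cells thinned to 2000 UMIs (-0.67, adjusted p = 0.0321 in edgeR). Cycling markers summed to 314.5 to 477.6 CPM in the Ifng gate and 200.8 to 267.8 CPM in the rest. Markers of CD8 and gamma-delta T cells summed to 79.0 to 188.6 CPM and 64.5 to 101.2 CPM. The part of both lists in these values was not tested.

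**Figure D2:**
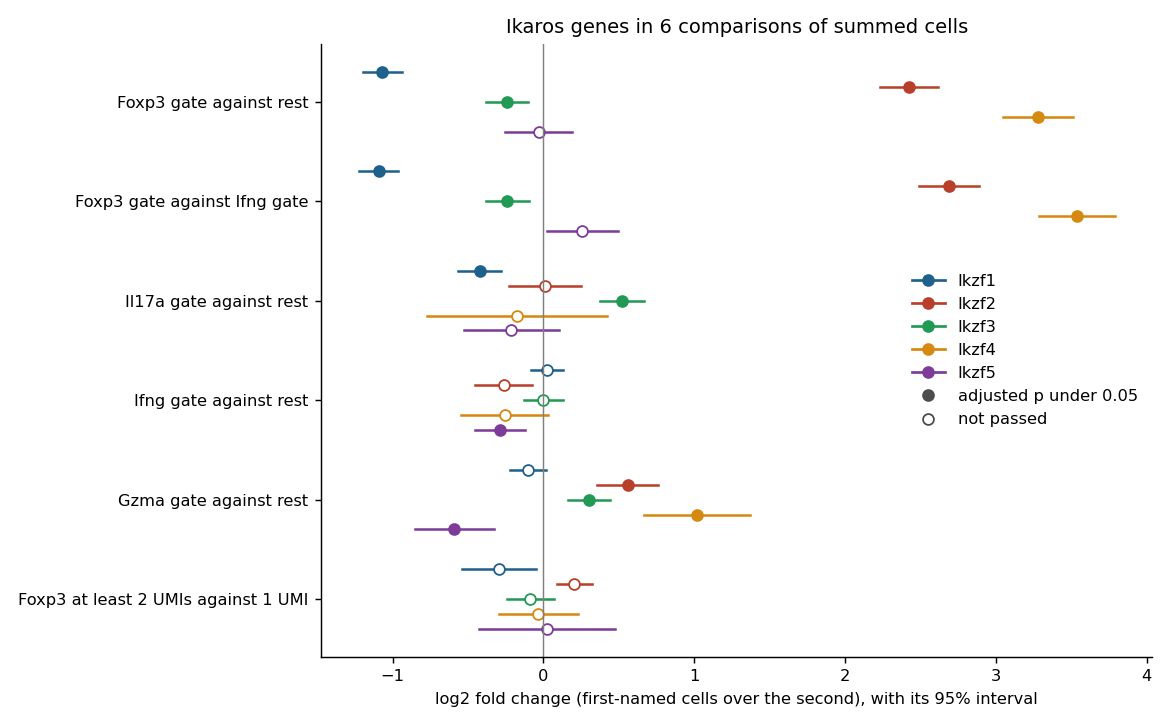
Log2 fold change of the 5 Ikaros genes (x axis) in 6 comparisons of summed cells (y axis), first-named cells over the second. Bars are 95% intervals from the SE and the normal distribution, not adjusted for the number of genes tested. Filled points passed an adjusted p of 0.05 in edgeR, so a bar can lie clear of 0 beside an open point. In the Foxp3 gate Ikzf2 and Ikzf4 lie at 2.42 and 3.28 over the rest and Ikzf1 at -1.07, while no point is filled in the comparison within Foxp3 cells.

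To compare shares between gates of different depth, every cell was thinned at random to 2000 UMIs, with its gate kept from the whole cell. This left out shallower cells and kept 20752, of which 1506 were in the Foxp3 gate and 10555 in the rest. At that depth 63.5% ± 5.0 of the Foxp3 gate still had a Foxp3 UMI (SD, n = 4 libraries). Ikzf2 was found in 75.4% ± 3.86 of the Foxp3 gate, 24.6% ± 3.16 of the Il17a gate and 19.4% ± 1.36 of the rest (91.2%, 44.6% and 30.5% unthinned). Ikzf4 was found in 12.2% ± 0.983 and 1.23% ± 0.206 (26.8% and 2.26% unthinned), and Ikzf1 in 13.0% ± 0.80 and 25.7% ± 1.08 (27.9% and 43.4% unthinned).

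Ikzf3 was found in 33.3% ± 1.66 of the Foxp3 gate and 36.1% ± 1.93 of the rest at 2000 UMIs (57.9% and 54.0% unthinned). It reached 53.1% ± 6.32 in the Il17a gate and 47.2% ± 2.45 in the Gzma gate. Ikzf5 was found in 3.94% ± 0.592 of the Foxp3 gate and 3.93% ± 0.113 of the rest (9.90% and 7.69% unthinned). Cells of the Foxp3 gate had a median of 2 Ikzf2 UMIs, and 50.9% had at least 2, against 6.15% of the rest.

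Free RNA could not be measured well. Myeloid cells were taken as the type expected to lack Foxp3, although they are known to express Ikzf1, and only few were found. The 14 myeloid cells (median 5639 UMIs) had no UMI of Foxp3, Ikzf2, Ikzf4 or Ikzf5, which allows a share of up to 21.4% for counting error alone, and 3 had Ikzf1 and 1 had Ikzf3. The Ikzf4 share at 2000 UMIs was close in the Il17a gate (1.08% ± 0.346), the Ifng gate (1.04% ± 0.158) and the rest (1.23% ± 0.206). No background share was measured for Ikzf4, so whether shares this low are expression was not tested.

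Most cells of the Foxp3 gate had 1 or 2 Ikaros genes at this depth. None was found in 11.6% ± 1.74 of the Foxp3 gate and 36.2% ± 1.62 of the rest. Exactly 1 was found in 47.4% ± 2.40 and 43.9% ± 1.16, and 2 in 33.2% ± 1.84 and 17.3% ± 0.779. All 5 together were found in no cell of the Foxp3 gate and in 1 cell of the rest.

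Co-detection with Foxp3 was measured in cells at equal depth, whatever their gate. Of the 20752 cells thinned to 2000 UMIs, 965 kept a Foxp3 UMI. In libraries 1 to 4, Ikzf2 was found in 79.5%, 74.1%, 80.0% and 74.5% of the cells with a Foxp3 UMI and in 21.3%, 22.6%, 20.9% and 19.1% of those without. Ikzf4 was found in 12.7%, 15.9%, 9.80% and 12.1% of the cells with a Foxp3 UMI and in 1.63%, 1.58%, 1.34% and 1.58% of those without. For both genes each library showed a higher share beside Foxp3.

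Ikzf1 was found in 11.5%, 11.0%, 13.7% and 14.0% of the cells with a Foxp3 UMI and in 24.4%, 24.9%, 24.5% and 27.2% of those without. Ikzf3 was found in 32.0%, 29.1%, 35.3% and 35.0% and in 37.1%, 40.8%, 37.6% and 38.2%. Both were less frequent beside Foxp3 in all 4 libraries, Ikzf3 by the smaller margin.

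As mean log2 odds ratios over libraries, co-detection with Foxp3 was 3.66 ± 0.28 for Ikzf2, 3.21 ± 0.24 for Ikzf4, -1.22 ± 0.17 for Ikzf1 and -0.35 ± 0.27 for Ikzf3 (SD, n = 4 libraries). Each of these had 1 sign in all 4 libraries, and a two-sided exact sign-flip permutation test gave p = 0.125, the smallest that 4 libraries can give. Ikzf5 had 0.32 ± 0.33, above 0 in 3 of 4 libraries (exact p = 0.25). Relative to independent detection within each library, cells with both Foxp3 and Ikzf4 were 6.10 ± 0.455 times as frequent. The same ratio was 3.29 ± 0.282 for Ikzf2, 0.863 ± 0.0969 for Ikzf3 and 0.509 ± 0.0510 for Ikzf1.

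**Figure D3:**
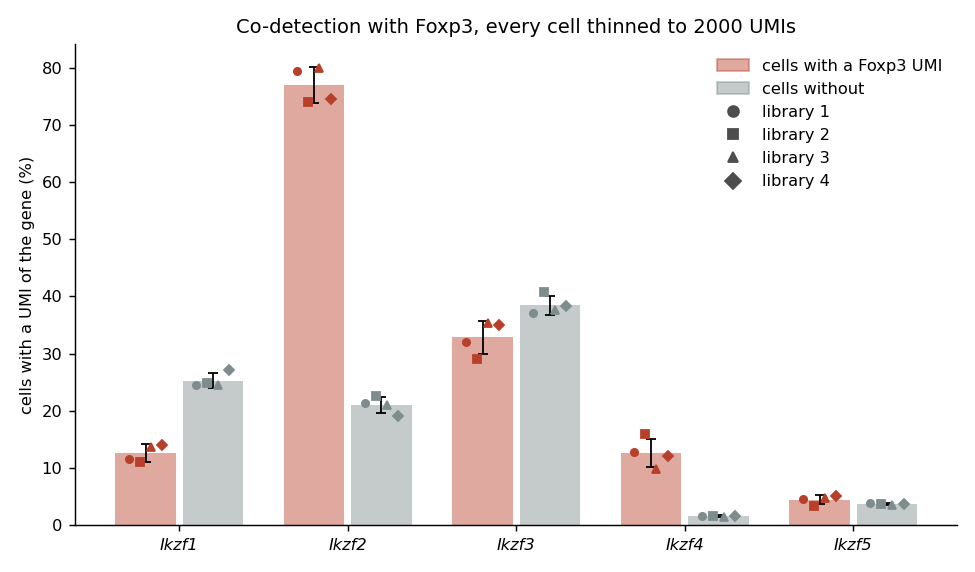
Share of cells with a UMI of each Ikaros gene (y axis, percent) among cells with (left bar) and without (right bar) a Foxp3 UMI, after thinning every cell to 2000 UMIs; bars are means with SD over 4 libraries and markers are libraries. Ikzf2 reaches 77.0% beside Foxp3 and 21.0% without, and Ikzf1 12.6% and 25.3%.

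By the number of Foxp3 UMIs at the depth of 2000, Ikzf2 was found in 21.0% ± 1.46 of the cells with none, 78.3% ± 4.09 of those with 1 and 73.9% ± 7.36 of those with 2 or more. For Ikzf1 the shares with none, 1 and 2 or more were 25.3% ± 1.30, 12.4% ± 3.23 and 12.5% ± 1.89, and for Ikzf4 they were 1.53% ± 0.134, 11.4% ± 3.10 and 13.9% ± 5.09. The cells with 1 and those with 2 or more overlapped over the libraries for each of these 3 genes.

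Summed over whole cells, 935 Foxp3 cells with at least 2 UMIs (median depth 4923 UMIs) were set against 600 with 1 UMI (4036.5 UMIs). edgeR called 3 of 7791 genes tested (0.0385%; 0.0128% higher and 0.0257% lower), and no Ikaros gene. Ikzf2 had 928, 832, 911 and 738 CPM in the cells with at least 2 Foxp3 UMIs and 835, 661, 828 and 647 CPM in those with 1. It was higher in all 4 libraries by 0.21 ± 0.06 on the log2 scale, with an adjusted p of 0.708. Ikzf1 had 64.2 ± 9.46 CPM and 79.2 ± 9.0 CPM (SD, n = 4 each), lower in all 4 libraries, with an adjusted p of 0.957 in edgeR. Trav4-3 and Trav3-3, which are receptor segments, were called lower. The count of called genes was 0 without library 2 and 11 without library 4.

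Within the Foxp3 gate at 2000 UMIs, 65.2% ± 4.07 of cells had Ikzf2 without Ikzf4, 10.2% ± 1.17 had both, 2.03% ± 0.623 had Ikzf4 without Ikzf2 and 22.6% ± 3.69 had neither (SD, n = 4 libraries). Ikzf2 and Ikzf4 were found in 1 cell somewhat more often than independent detection gives in 3 of 4 libraries (log2 odds ratio 0.76 ± 0.63). In the rest the same pair was above independence in all 4 libraries, at 2.28 ± 0.68, though it was seen in 68 cells. Ikzf1 and Ikzf2 were found together less often than independence gives in all 4 libraries, both in the Foxp3 gate (-0.63 ± 0.36, 133 cells) and in the rest (-0.43 ± 0.10, 436 cells). These odds ratios are descriptions with no test.

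Cells with UMIs of both Ikzf2 and Ikzf4 were also found without a Foxp3 UMI, and are described by those UMIs, with no background share for Ikzf4 to set them against. Counted in whole cells, they were 392 of the 1535 cells of the Foxp3 gate (25.5%), 52 of the Gzma gate (2.98%), 13 of the Il17a gate (2.22%), 75 of the Ifng gate (1.14%) and 160 of the rest (1.45%). A cell without a Foxp3 UMI may still express Foxp3, since 600 of the 1535 cells of its gate had only 1 UMI. How many of the cells described here did so was not tested. The genes given next were chosen after their values were seen, so they are a description with no test. In those 160 cells of the rest (median 4359 UMIs), Tnfrsf9, a costimulatory receptor of activated Treg cells, had 755 ± 141 CPM, against 25.2 ± 9.69 CPM in the 7578 cells of the rest with neither gene (median 3677 UMIs). The Foxp3 gate had 846 ± 172 CPM.

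Il2ra, the high-affinity IL-2 receptor chain, had 109 ± 35.8 CPM in the 160 cells, 11.4 ± 1.45 CPM in those with neither and 100.7 ± 22.8 CPM in the Foxp3 gate. Lrrc32, which holds latent TGF-β on the Treg surface, had 26.4 ± 7.74 and 0.272 ± 0.198 CPM, and Itgb8, an integrin chain that activates TGF-β, had 29.4 ± 17 and 0.614 ± 0.371 CPM. Lrrc32 and Itgb8 rest on 24 and 26 UMIs in the 160 cells. Ikzf1 averaged 85.9 ± 31.2 CPM there and 159 ± 4.91 CPM in cells with neither. Other genes were less like the Foxp3 gate. Ikzf3 had 289 ± 79.5 CPM in the 160 cells and 248 ± 26.0 CPM in those with neither. The Foxp3 gate had 218 ± 21.0 CPM. In the same order, Flicr had 3.30 ± 6.60 (3 UMIs), 0.313 ± 0.315 and 13.3 ± 3.96 CPM. Gzma, held low in the rest by the gate rule, had 216 ± 66.2, 185 ± 10.4 and 2487 ± 565 CPM. Ctla4, Tnfrsf18 and Areg had means between those of the cells with neither and the Foxp3 gate. In the 52 cells of the Gzma gate with both Ikzf2 and Ikzf4 UMIs, Tnfrsf9 had 705 ± 473 CPM and Lrrc32 had no UMI. Itgb8 had 63.5 ± 60.6 CPM (16 UMIs) there and no UMI in the 1043 cells of the Gzma gate with neither gene, and Il2ra had 88.8 ± 53.2 CPM and 10.7 ± 3.89 CPM.

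**Figure D4:**
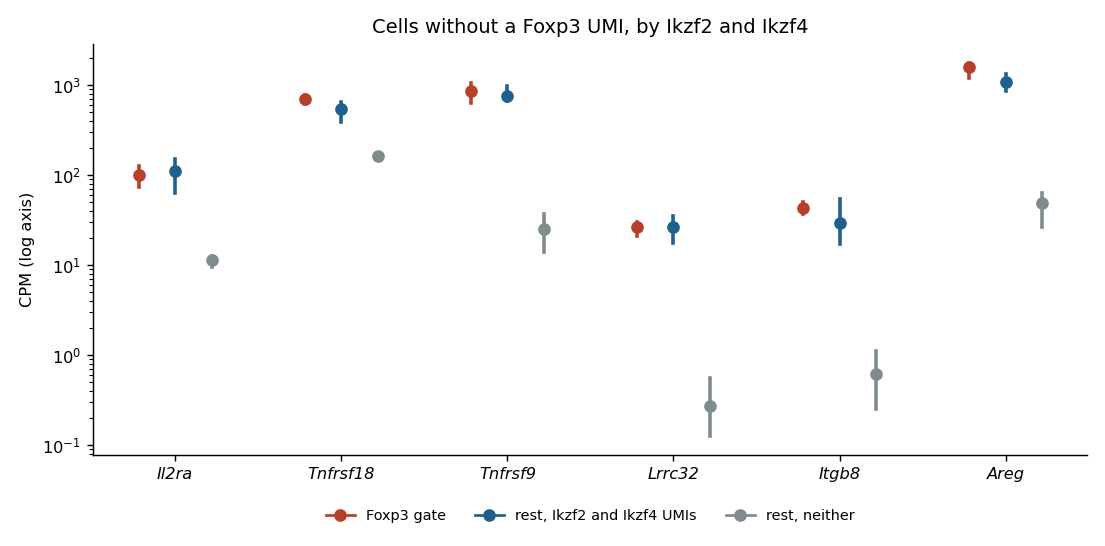
Level in CPM (y axis, log scale) of 6 genes in the Foxp3 gate, in cells of the rest with Ikzf2 and Ikzf4 UMIs and in cells of the rest with neither; points are means over 4 libraries and bars run from the lowest to the highest library. For each gene the mean of the 160 cells with both lies above that of the cells with neither (Tnfrsf9 at 755 and 25.2 CPM), and for Tnfrsf9 the Foxp3 gate lies at 846 CPM.

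Lists of genes around Foxp3 and the Ikaros proteins give the setting of these values in the Foxp3 gate against the rest (edgeR, adjusted over all 9693 genes tested, with a median log2 fold change of -0.02). The lists were chosen with earlier results of these data known, so their counts are descriptions and no test against the background. Of 26 genes known to go with Foxp3 in Treg cells, 25 were tested (all but Gpr83) and all 25 rose, with a median of 2.45 and a background of 18.2% called higher. Some were low in the rest, such as Lrrc32 (1.92 CPM), Nrp1 (2.01 CPM) and Itgb8 (3.53 CPM). These may have passed the filter on low counts through the Foxp3 gate, so their rise may be partly set by that filter. Tigit, an inhibitory receptor, rose by 2.07 ± 0.08 (adjusted p = 3.35e-15). Capg, an actin-capping protein, rose by 3.28 ± 0.10 (8.09e-17). Il10, the anti-inflammatory cytokine, rose by 3.78 ± 0.15 (1.27e-14), and Areg, the tissue-repair growth factor amphiregulin, by 3.37 ± 0.14 (1.43e-14). Set against the Ifng gate, 23 of these 25 genes rose, 1 fell and 1 did not pass (background 17.6% higher and 15.5% lower). In the Gzma gate, whose cells had no Foxp3 UMI, 10 rose against the rest, 3 fell and 12 did not pass (background 8.43% higher and 7.63% lower).

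Of 23 transcription factors that work beside Foxp3 or on its gene, 12 rose, 3 fell and 8 did not pass, with a median of 0.20, against a background of 18.2% called higher and 16.2% lower. Gata3 had 389 ± 60.4 CPM in the Foxp3 gate and 118 ± 32.9 CPM in the rest (log2 fold change 1.78 ± 0.13, adjusted p = 3.12e-10 in edgeR). Rel, the NF-κB subunit that acts on the Foxp3 gene, rose by 1.48 ± 0.07 (1.49e-13) and Stat3 by 0.60 ± 0.06 (1.41e-08). Tcf7, a factor of naive and memory T cells, fell to 38.5 ± 6.19 CPM, against 161 ± 13.8 CPM in the rest (-2.05 ± 0.10, adjusted p = 4.14e-13). The other genes that fell were Bach2 and Runx3. Among the genes that rose were Lef1 (0.35 ± 0.12, adjusted p = 0.0313), Foxo1 (0.38 ± 0.07, 2.40e-04) and Satb1 (0.32 ± 0.09, 0.00989 in edgeR).

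Subunits of NuRD and Sin3, complexes through which Ikaros proteins act on chromatin, are next. Their list also holds the corepressor genes Ctbp1 and Ctbp2, which are subunits of neither complex. Of 17 genes 16 were tested (all but Ctbp2), 2 rose, 2 fell and 12 did not pass, with a median of 0.01 in edgeR and a background of 18.2% called higher and 16.2% lower. Mbd2 fell by 0.38 ± 0.08 on the log2 scale (adjusted p = 6.16e-04) and Chd3 by 0.20 ± 0.06 (0.0197), while Chd4, the main ATPase of NuRD, rose by 0.33 ± 0.07 (3.84e-04) and Rbbp4 by 0.13 ± 0.04 (0.0285). With cells thinned to 2000 UMIs, Chd4 (0.12, adjusted p = 0.501), Chd3 (-0.23, 0.0727) and Rbbp4 (0.11, 0.382) no longer passed. In cells of 3000 to 5000 UMIs Chd4 (0.22, adjusted p = 0.159) and Chd3 (-0.18, 0.0946) did not pass. Chd3 also did not pass without library 1 (adjusted p = 0.0627), 2 (0.0566) or 4 (0.0532), nor Rbbp4 without library 1 (0.199), 2 (0.0658) or 3 (0.0927) in edgeR.

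Of 8 genes of the cereblon ligase, which lenalidomide turns against the Ikaros and Aiolos proteins in human cells, and of casein kinase 2, which phosphorylates Ikaros, 1 rose and 7 did not pass, against a background of 18.2% called higher. Ddb1, the ligase's adaptor, had 90.4 ± 3.94 CPM in the Foxp3 gate and 65.1 ± 1.32 CPM in the rest (log2 fold change 0.49 ± 0.08, adjusted p = 2.17e-05 in edgeR). Crbn had 127 ± 17.4 and 114 ± 7.16 CPM (0.18 ± 0.07, adjusted p = 0.074 in edgeR). It was higher in only 2 of the 4 libraries, and the ranges overlapped. Crbn passed with cells thinned to 2000 UMIs (0.40, adjusted p = 0.00101).

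Of 13 genes of cytokines and Cd40lg, targets that Ikaros proteins or Foxp3 are known to repress among them, 9 fell, none rose and 4 did not pass, against a background of 16.2% called lower (edgeR). Il2, the growth factor that Aiolos and Foxp3 hold down, had 7.47 ± 1.92 CPM in the Foxp3 gate and 66.1 ± 12.6 CPM in the rest (-3.11 ± 0.30, adjusted p = 2.76e-08). Cd40lg, the helper signal to B cells, fell by 2.04 ± 0.08 (8.70e-15), Tnf by 1.26 ± 0.12 (3.34e-08) and the chemokine Ccl5 by 0.90 ± 0.13 (5.89e-06). With cells thinned to 2000 UMIs the log2 fold change was -4.81 for Il2 and -2.09 for Tnf, and in cells of 3000 to 5000 UMIs it was -7.23 and -2.28. Il2 then had 4 and 1 UMIs in the Foxp3 gate, against 67 in whole cells, so its fold there depends on how edgeR treats sums near 0. Tnf had 28 and 33 UMIs. Without the Foxp3 cells that also passed another gate, Ccl5 was at -1.67.

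**Figure D5:**
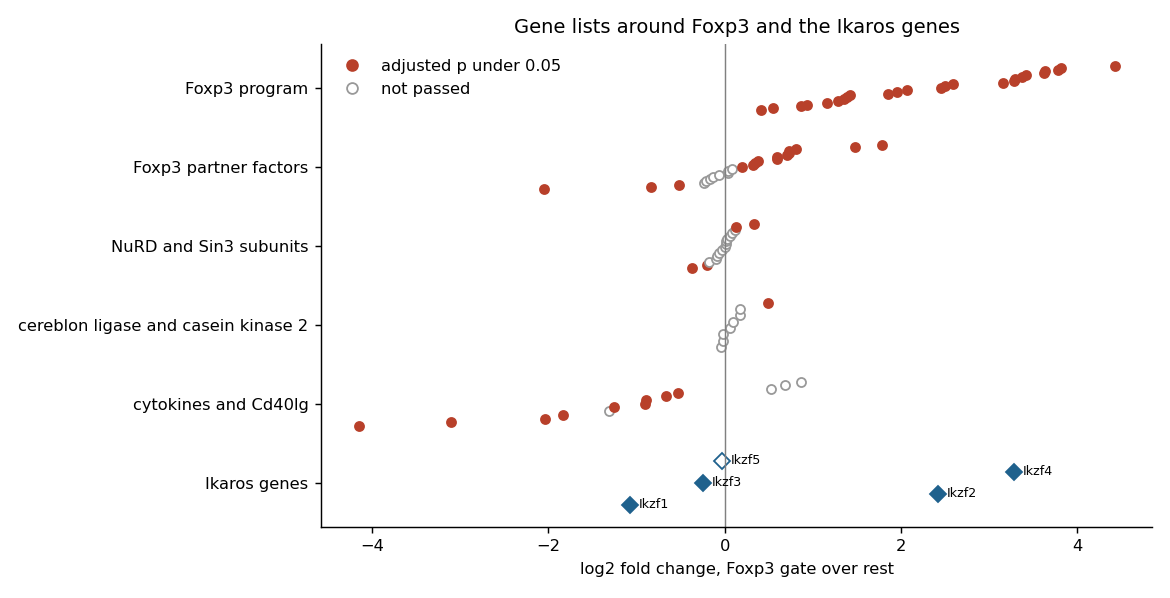
Log2 fold change in the Foxp3 gate over the rest (x axis) of each gene tested in 5 lists (y axis) and of the 5 Ikaros genes (diamonds); filled points passed an adjusted p of 0.05 in edgeR. All 25 Foxp3 program genes lie above 0. The list of NuRD and Sin3 subunits, which also holds Ctbp1, lies around a median of 0.01. The Ikaros genes spread from -1.07 (Ikzf1) to 3.28 (Ikzf4).

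The genes whose levels followed each Ikaros gene most closely over the 20 library and gate sums were found by Pearson's r of log2(CPM + 1), as a description with no p, because the 20 points come from 4 libraries. None are given for Foxp3, whose level outside its gate is 0 by the gate rule. For Ikzf2 they were Mmd (r = 0.97), Tnfrsf9, Tigit, Pcyt1a and Hacd3, and for Ikzf4 they were Ubash3b (0.96), Pcyt1a, Tigit, N4bp1 and Arl5a. Pcyt1a and Tigit stood in both of these lists. Ikzf1 was followed by Pde7a (0.97), Grap2, Gcnt2, Sntb2 and St3gal6, all lower in the Foxp3 gate than in the rest, as with Pde7a at 21.9 and 73.7 CPM.

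Ikzf3 was followed by Lsp1 (0.90), Fbxo8, Rftn1, Ucp2 and Dap, each at its highest mean in the Il17a gate. Ikzf5 was followed less closely, by Ctss (0.88), Cd74, Dgka, Stambpl1 and Ltb. Among the members, r was 0.95 between Ikzf2 and Ikzf4, -0.85 between Ikzf1 and Ikzf2 and -0.81 between Ikzf1 and Ikzf4. For these 3 genes the Foxp3 gate sums lay apart from those of every other gate. Ikzf2, for example, had at least 704 CPM there and at most 269 CPM elsewhere. These r, and the genes that followed these 3, therefore in large part restate the difference of the Foxp3 gate.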

How the data were processed

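Per the submitters' processing notes, the authors made the deposited UMI counts with Cell Ranger 3.0.2 against mm10. The 4 libraries held 28783972, 26407082, 23918884 and 26681150 UMIs. The lowest barcode held 502 UMIs, so barcodes had been filtered before deposit. How reads in overlapping genes were assigned is not given in the sources used here, and all values count 5′ ends.

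Cells were kept with at least 500 genes, 1000 UMIs and at most 10% mitochondrial UMIs (22534). Scrublet (scanpy 1.11.5) then removed the 1033 highest scores, 0.8% per 1000 barcodes. UMIs were summed per library and gate and tested with edgeR 4.0.16 (glmQLFit, glmQLFTest, TMM, filterByExpr, library as a block, 12 residual degrees of freedom for the 5 gates), adjusted by Benjamini-Hochberg over all genes tested, with Foxp3, Il17a, Ifng and Gzma left out in the gates. The block is the library itself, since all gates of a library are the same suspension. Within Foxp3 cells the fit had 3 residual degrees of freedom. Another comparison within Foxp3 cells, and 1 gene of a list, are not reported here. The procedure was tested on simulated data. SE is the fold change divided by the square root of F, and 95% intervals are taken from the normal distribution. The limit for a count of 0 (3 counts) covers counting error only.

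Named genes were the 6 members, up to 4 genes per list with the smallest adjusted p, and the 5 genes of at least 20 CPM most like each Ikaros gene (those for Foxp3 are not given, since the gate fixes its level). Genes named otherwise were chosen after their values were seen. The members and lists were chosen with earlier results of these data known. The alternatives were DESeq2 1.42.0, library size alone, no filter, no block, no doublet removal, each library left out, and thinned cells. For tests in thinned cells the gates were set again on the thinned counts, where 965 cells had a Foxp3 UMI. Shares of cells by gate used gates set on whole cells. Cells of 3000 to 5000 UMIs, Foxp3 cells of other gates left out, and thinned cells within the Foxp3 gate were added after the data were seen.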

Additional observations from a re-analysis of the deposited data

Results flagged for a closer look

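Of 52 groups of 4 libraries looked at for a library far from the others, 2 were marked, and chance marks about 1 in 20 such groups. Ikzf1 in the Foxp3 gate had 80.6 CPM in library 4, against 64.4 to 66.5 CPM in the other libraries. Its gap to the nearest library was 0.866 of the whole range, above Dixon's critical value for 4 samples. Library 4 also had the highest Ikzf1 level in every other gate. Ikzf4 in the Gzma gate had 18.7 CPM in library 2, against 10.5 to 10.7 CPM in the others, a gap of 0.974 of the range.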

How the results depend on the processing

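The calls of Ikzf1, Ikzf2 and Ikzf4 in the Foxp3 gate held against the rest and against the Ifng gate under every alternative tried. Calls were lost for Ikzf3 against the Ifng gate without library 1 (adjusted p = 0.0743 in edgeR), for Ikzf3 in the Foxp3 gate against the rest in cells of 3000 to 5000 UMIs (0.0783) and for Ikzf5 in the Gzma gate in those cells (0.182). Ikzf2 was called lower in the Ifng gate than in the rest with no filter (1.15e-04), thinned (0.00724) and in cells of 3000 to 5000 UMIs (0.0127). Thinning cells to 2000 UMIs, with gates set again on the thinned counts, left 1748 genes called for the Foxp3 gate against the rest and 1735 against the Ifng gate. It left 614 for the Il17a gate and 962 for the Gzma gate, each against the rest. The thinned sums held fewer UMIs and in part other cells. Cells of 3000 to 5000 UMIs left 421 for the Il17a gate. For the Ifng gate these counts were 725 and 871. With no replicate block there were 390 for the Ifng gate, 975 for the Gzma gate and 0 for the Foxp3 UMI split, and the block is the library that all gates of a pair come from. For the Foxp3 UMI split, no filter gave 48, no doublet removal 1, and leaving out a library 0 to 11. The Ifng gate had 676 to 869 with a library left out.

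Depth sets the shares of Foxp3 gate cells. At 1000 and 3000 UMIs they were 5.78% and 17.6% for Ikzf1, 54.8% and 83.9% for Ikzf2, 18.7% and 44.0% for Ikzf3, 6.60% and 15.9% for Ikzf4, and 1.79% and 5.65% for Ikzf5. The log2 odds ratio with Foxp3 was 3.22 and 4.16 for Ikzf2, and -1.65 for Ikzf1 at 1000 UMIs.

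Only values that were not called changed sign, and the cause was not tested. For Ikzf5 in the Foxp3 gate against the rest these were 0.0086 with no doublet removal, 0.20 thinned, 0.071 without cells of other gates and -0.097 to 0.061 with a library left out. In the Il17a gate Ikzf2 was -0.032 with library size alone, -0.047 with no filter, -0.0031 with no block and -0.069 to 0.091 with a library left out, and in cells of 3000 to 5000 UMIs Ikzf4 was 0.12 and Ikzf5 0.044. In the Ifng gate Ikzf3 was 0.0067 with DESeq2, 0.022 with library size alone, 0.00019 with no block, 0.0055 with no doublet removal, 0.068 thinned, 0.049 at 3000 to 5000 UMIs and -0.044 to 0.048 with a library left out. In the Foxp3 UMI split Ikzf1 was 0.11 and Ikzf4 0.38 thinned, and with a library left out Ikzf4 was -0.15 to 0.036 and Ikzf5 -0.068 to 0.14. Rbx1 was -0.12 thinned and -0.025 at 3000 to 5000 UMIs.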
